A study of Mus musculus with 2 samples.

Results

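The regions described here are KAT8 CUT&Tag peaks of mouse bone marrow-derived macrophages that lie at the ends of long non-coding RNA (lncRNA) genes and away from the ends of protein-coding genes. A peak was counted where at least 1 bp of it fell within 1000 bp on either side of either end of a RefSeq gene of biotype lncRNA (mm10) and no base fell in such a window of a protein-coding gene. By this rule 915 of 44772 peaks (2.04%) were taken from the R848 list and 1032 of 52001 peaks (1.98%) from the untreated list, 1947 of 96773 in all. CUT&Tag uses an antibody, here against KAT8, to bring a transposase to the bound protein, where it cuts and tags the DNA. The cells were primary macrophages of wild-type mice, differentiated from bone marrow in medium with M-CSF, a growth factor of the macrophage lineage, at 20 ng/ml. They received R848, a synthetic ligand that activates TLR7 in mouse endosomes, at 100 ng/ml for 2 h (1 library), or no stimulus (1 library). The sources used here do not give the mouse strain, sex or age, or whether animals were pooled. With 1 library per group the differences have no replicate check, and no p-value between the groups can be had.

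LncRNAs are transcripts that are not known to code for protein. Some act in place, by their transcription or on neighbouring genes, some build nuclear bodies or silence imprinted domains, and some are host transcripts from which small nucleolar RNAs or microRNAs are cut. In macrophages several are induced by Toll-like receptor ligands, such as lincRNA-Cox2 (Ptgs2os2) and the host transcript of miR-155. KAT8, also called MOF, is the acetyltransferase of the MSL and NSL complexes. It acts on histone H4, and the NSL complex is known from promoters of active genes.

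The 300 bp windows around the annotated starts of 6 of these genes are shown because they span the range from starts with a peak in both lists to starts with a peak in 1 list, and from dense to sparse in CpG dinucleotides. Each window reaches from 250 bp before the start to 50 bp after it, is written 5′ to 3′ on the gene's strand, and has its CpG dinucleotides in capitals. The sequences are from RefSeq, build GRCm38.p6.
Mir22hg (chr11:75461289-75461588, plus strand, peak in both lists): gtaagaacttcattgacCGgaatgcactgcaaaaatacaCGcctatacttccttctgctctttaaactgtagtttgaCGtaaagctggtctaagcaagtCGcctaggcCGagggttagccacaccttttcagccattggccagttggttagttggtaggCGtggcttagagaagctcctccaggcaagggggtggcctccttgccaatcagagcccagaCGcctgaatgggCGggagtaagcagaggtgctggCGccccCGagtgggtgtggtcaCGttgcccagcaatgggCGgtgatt
Chaserr (chr7:73558346-73558645, minus strand, peak in both lists): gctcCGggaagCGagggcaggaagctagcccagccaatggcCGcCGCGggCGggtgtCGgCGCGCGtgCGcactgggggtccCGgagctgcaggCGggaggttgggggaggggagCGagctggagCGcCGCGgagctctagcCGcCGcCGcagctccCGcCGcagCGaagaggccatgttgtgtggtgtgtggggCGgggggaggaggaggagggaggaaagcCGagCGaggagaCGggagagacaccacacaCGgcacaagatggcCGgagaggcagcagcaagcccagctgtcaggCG
Snhg5 (chr9:88522848-88523147, minus strand, peak in both lists): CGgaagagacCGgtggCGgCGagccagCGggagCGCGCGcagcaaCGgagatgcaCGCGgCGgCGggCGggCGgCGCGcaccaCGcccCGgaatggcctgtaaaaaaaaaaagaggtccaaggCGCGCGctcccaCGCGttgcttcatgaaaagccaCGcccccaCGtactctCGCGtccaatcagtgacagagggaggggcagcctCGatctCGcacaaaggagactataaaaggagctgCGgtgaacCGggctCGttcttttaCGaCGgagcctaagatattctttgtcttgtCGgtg
Malat1 (chr19:5802623-5802922, minus strand, peak in the untreated list): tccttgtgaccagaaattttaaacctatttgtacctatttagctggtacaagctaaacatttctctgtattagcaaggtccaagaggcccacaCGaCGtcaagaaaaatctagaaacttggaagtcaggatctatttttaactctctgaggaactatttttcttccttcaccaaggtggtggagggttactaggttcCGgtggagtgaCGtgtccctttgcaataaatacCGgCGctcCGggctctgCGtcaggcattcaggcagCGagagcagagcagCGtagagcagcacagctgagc
Dnmt3aos (chr12:3862195-3862494, minus strand, peak in the untreated list): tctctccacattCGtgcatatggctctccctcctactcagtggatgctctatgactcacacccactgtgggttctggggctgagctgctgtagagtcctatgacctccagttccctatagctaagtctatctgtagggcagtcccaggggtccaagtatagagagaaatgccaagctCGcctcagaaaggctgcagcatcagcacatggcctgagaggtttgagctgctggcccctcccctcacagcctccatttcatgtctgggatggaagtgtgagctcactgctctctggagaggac
Gm51639 (chr1:88331683-88331982, minus strand, peak in the R848 list): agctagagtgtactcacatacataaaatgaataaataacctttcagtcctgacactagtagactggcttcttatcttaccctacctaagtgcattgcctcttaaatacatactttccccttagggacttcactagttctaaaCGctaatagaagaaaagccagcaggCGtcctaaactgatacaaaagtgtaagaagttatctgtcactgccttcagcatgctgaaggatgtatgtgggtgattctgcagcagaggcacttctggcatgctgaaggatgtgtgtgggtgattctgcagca
The Snhg5, Chaserr and Mir22hg windows hold 36, 30 and 12 CpG dinucleotides, the Malat1 window 10, and the Dnmt3aos and Gm51639 windows 2 each. Mir22hg is the host transcript of miR-22, whose mature forms are given with the seed, bases 2 to 8, in capitals.
mmu-miR-22-5p: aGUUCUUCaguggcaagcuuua
mmu-miR-22-3p: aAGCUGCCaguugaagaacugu

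The R848 library had the lower background. Solved from the deposited peak values, it was 2.62 fragments per position in the R848 library and 3.37 in the untreated library, and the peaks with the fewest fragments held 7 and 8 at the summit. A fold over background, a −log10 p or a −log10 q, where q is p adjusted for multiple testing, is the authors' own value for a peak within its list. It ranks or describes peaks of that list, and folds of the 2 lists set side by side do not measure a change. Of all protein-coding genes, 24.4% had a peak at a gene end in the R848 list and 28.8% in the untreated list. Of 12 macrophage markers, 6 had a peak at a gene end in the R848 list and 6 in the untreated list. Among 14 markers of T and B cells, granulocytes, stroma and epithelium, 1 T or B cell marker had one, in the R848 list only. A different marker, 1 of stroma or epithelium, had one in the untreated list only. The markers are few, and their counts were not tested against these shares. A KAT8 peak is not a measure of expression.

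LncRNA genes carried far fewer peaks than protein-coding genes. Of 12727 lncRNA genes, 864 (6.79%, 95% exact binomial interval 6.36 to 7.24) had such a peak in the R848 list and 965 (7.58%, 7.13 to 8.06) in the untreated list. A peak at a gene end was found for 24.4% of protein-coding genes in the R848 list and for 28.8% in the untreated list. Part of this gap follows from the rule, which leaves out every peak that also lies near a coding end. Per length, the windows of lncRNA genes that lie outside those of coding genes held 18.3 summits per Mb in the R848 list and 20.8 in the untreated list. The windows of coding genes held 59.8 and 70.8. All intervals cover counting error alone, and neighbouring peaks are not independent.

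Both lists had a peak at 299 lncRNA genes. Those with a peak in a single list numbered 565 for R848 and 666 for untreated, which is 4.44% and 5.23% of all lncRNA genes tested. The peaks of the 2 lists overlapped at 241 (80.6%) of the 299 genes. At 6 of the R848-only genes and 5 of the untreated-only genes the peak did overlap one of the other list, which did not itself meet the rule. Of the 1530 lncRNA genes with a peak in either list, 1459 (95.4%) carry provisional symbols (Gm numbers, Rik names or LOC numbers), for which nothing is said of function here. Of the 71 others, 29 are named as the opposite strand of a neighbour (symbols ending in os). They fell into 6 with a peak in both lists, 10 in the R848 list only and 13 in the untreated list only.

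Most of the peaks were found in 1 list. Of the R848 peaks, 648 (70.8%) overlapped no untreated peak, and of the untreated peaks 759 (73.5%) overlapped no R848 peak, where the same held for 64.2% of all R848 peaks and 69.0% of all untreated peaks. The overlapping part was 29.2% (26.3 to 32.2) of R848 peaks and 26.5% (23.8 to 29.3) of untreated peaks. Peaks at coding ends only were shared in 60.7% (59.2 to 62.1) and 51.2% (49.9 to 52.6) of cases. Peaks at neither kind of end were shared in 32.6% (32.1 to 33.1) and 28.3% (27.8 to 28.7). Where a peak lay at a lncRNA end and a coding end at once, and was therefore left out by the rule, it was shared in 73.2% (69.4 to 76.8) of 564 R848 peaks and 60.6% (56.8 to 64.3) of 680 untreated peaks. The share of lncRNA-end peaks found in both lists was thus near that of peaks at neither kind of end, and well below that of coding-end peaks. For untreated peaks the lncRNA-end interval included the share of peaks at neither kind of end.

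Sharing went with peak strength. Among R848 peaks at lncRNA ends with −log10 p from 2 to 3, 9.38% of 160 overlapped an untreated peak, and among those of 10 and over 94.3% of 53 did. The untreated peaks gave 8.72% of 149 and 92.9% of 70 in the same bins. At equal strength the peaks at coding ends were shared more often. From −log10 p 4 to 6, 26.6% (22.0 to 31.5) of R848 and 24.8% (20.2 to 30.0) of untreated lncRNA-end peaks were shared, against 55.2% (52.7 to 57.6) and 43.2% (40.8 to 45.6) at coding ends. Peaks at neither end gave 33.5% (32.8 to 34.2) and 30.6% (29.9 to 31.3) there. All 29 lncRNA genes with an R848 peak of −log10 q of at least 10, and all 38 with an untreated one, had a peak in the other list too.

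**Figure D1:**
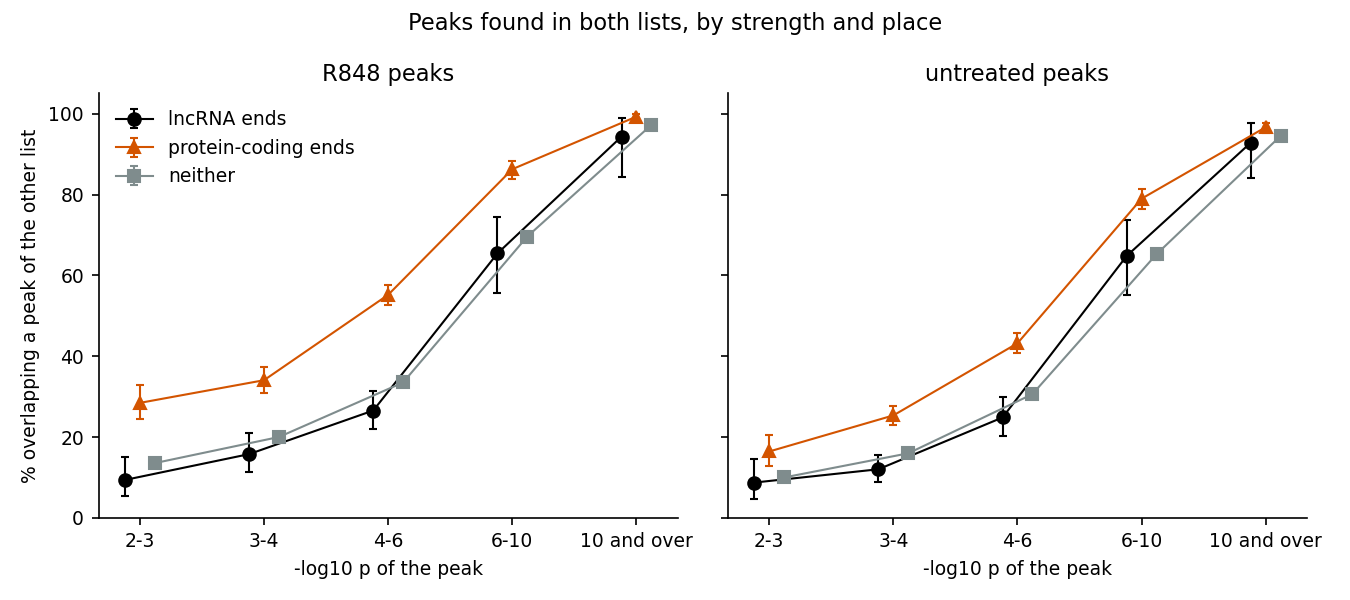
Share of peaks (%) that overlapped a peak of the other list, by −log10 p of the peak, for peaks at lncRNA ends (black), at protein-coding ends only (orange) and at neither (grey), with 95% exact binomial intervals (counting error only); R848 peaks left, untreated peaks right. From −log10 p 4 to 6 the lncRNA-end peaks were at 26.6% and 24.8%, and the coding-end peaks at 55.2% and 43.2%.

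The lncRNA-end peaks were modest in size. Their median fold was 3.04 in the R848 list and 2.75 in the untreated list, the same as over all peaks of each list, and their median width was 271 and 275 bp. A fold of 5 or more was reached by 45 R848 peaks (4.92%) and 53 untreated peaks (5.14%), where 4.00% and 3.49% of all peaks did, with 2.88% and 2.23% at neither kind of end and 11.99% and 12.1% at coding ends only. A q-value of 0.05 or less was reached by 40.3% (37.1 to 43.6) of R848 and 33.6% (30.7 to 36.6) of untreated peaks, against 41.1% and 36.3% over all peaks. Whether a peak covered the gene end itself went with sharing: peaks over the end base were shared in 51.3% of 158 R848 peaks and 45.9% of 172 untreated peaks. Peaks with an edge more than 500 and up to 1000 bp away, just inside the rule, were shared in 22.3% of 345 and 20.3% of 395, and those at up to 1500 bp, just outside it, in 24.3% of 317 and 21.9% of 388. The peaks at the outer part of the window thus had values like those beyond it.

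LncRNA-end peaks lay more often at the 5′ end of the gene than at the 3′ end, but less so than at coding genes. Among lncRNA genes of at least 3000 bp with an annotated start and a peak, the peak was at the 5′ end alone in 58.9% (54.7 to 63.1) of 543 genes in the R848 list and 62.1% (58.1 to 66.0) of 604 genes in the untreated list. It was at the 3′ end alone in 37.2% and 33.4%. Protein-coding genes had the peak at the 5′ end alone in 85.1% (84.0 to 86.2) of 3999 and 86.6% (85.6 to 87.6) of 4709 genes. The rule took peaks that also lay near a coding end, such as those at shared starts, out of the lncRNA shares only. How far this moved the gap between lncRNA and coding genes was not tested. The summit lay within 250 bp of the nearest annotated start of its own lncRNA gene for 19.9% of 735 R848 peaks and 21.8% of 818 untreated peaks. For shared peaks this was 28.8% (23.0 to 35.3) and 29.9% (24.0 to 36.4), and for peaks of 1 list 16.0% (12.9 to 19.4) and 18.7% (15.6 to 22.1).

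**Figure D2:**
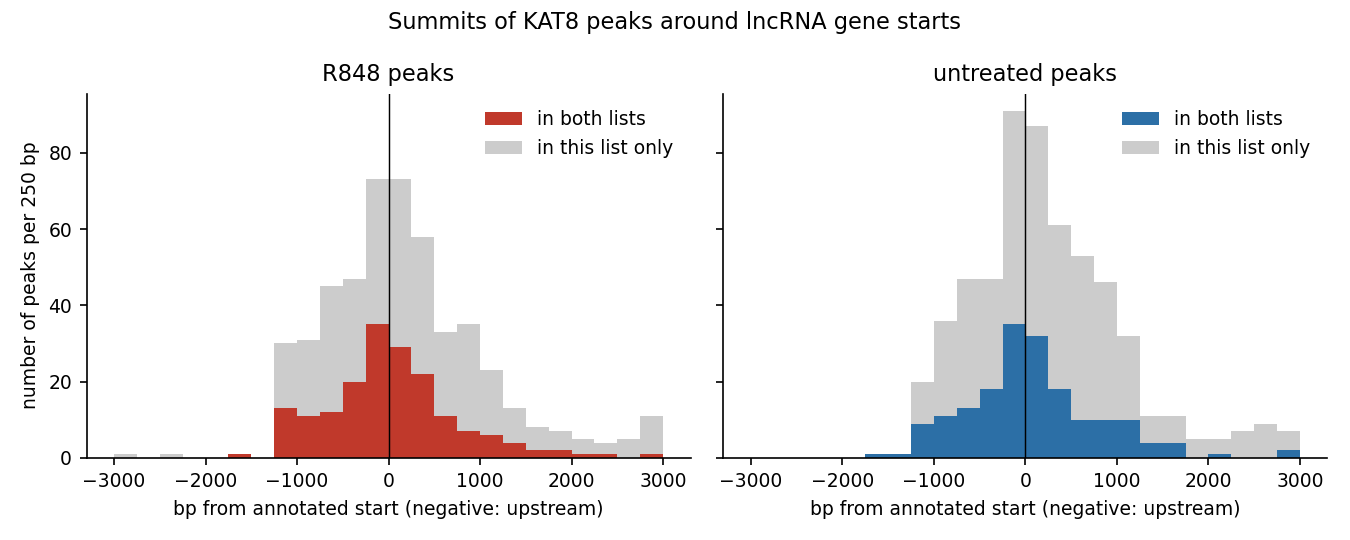
Distance (bp) from the summit of each lncRNA-end peak to the nearest annotated start of its gene, negative upstream, in bins of 250 bp (y axis: number of peaks); R848 peaks left, untreated peaks right, peaks shared between lists in colour and peaks of 1 list stacked on them in grey. Summits within 250 bp of a start were 19.9% and 21.8% of peaks, and distances beyond 3000 bp are not drawn.

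Many of these peaks lay within coding genes. The summit lay inside a protein-coding gene, away from its ends, for 34.3% (31.2 to 37.5) of R848 and 34.5% (31.6 to 37.5) of untreated peaks, so a peak at a lncRNA end can equally be a peak within a coding gene. Of the lncRNA genes with a peak, 38.7% and 39.1% overlapped a coding gene body, against 36.0% of all lncRNA genes. Outside coding gene bodies the nearest coding gene was at a median of 38426 bp for R848 peaks and 30028 bp for untreated peaks. The summit was inside a lncRNA gene for 48.7% and 53.2%.

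LncRNA starts with KAT8 peaks were more often CpG-rich than those without. Of 9533 lncRNA genes with an entry in the start table, 10014 windows of 300 bp lay clear of coding windows, and 402 of them were CpG-rich, with a GC content of at least 55% and an observed over expected CpG ratio of at least 0.6. Among windows with a peak in both lists 64.0% of 86 were CpG-rich (52.9 to 74.0). The share was 29.1% of 103 with one in R848 alone (20.6 to 38.9), 21.3% of 136 with one in untreated alone (14.8 to 29.2) and 2.97% of 9689 with a peak in neither (2.64 to 3.33). Seen from the sequence, 21.1% (17.3 to 25.5) of CpG-rich windows had a peak in the R848 list and 20.9% (17.02 to 25.2) in the untreated list, against 1.08% and 1.44% of the other windows. Of CpG-rich windows with a peak in either list, 48.2% (38.8 to 57.8) had one in both, and of other windows 14.7% (10.2 to 20.2). The R848-only and untreated-only intervals overlap. No control or accessibility library was analysed, and the part of open chromatin and of GC content in these shares was not tested.

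**Figure D3:**
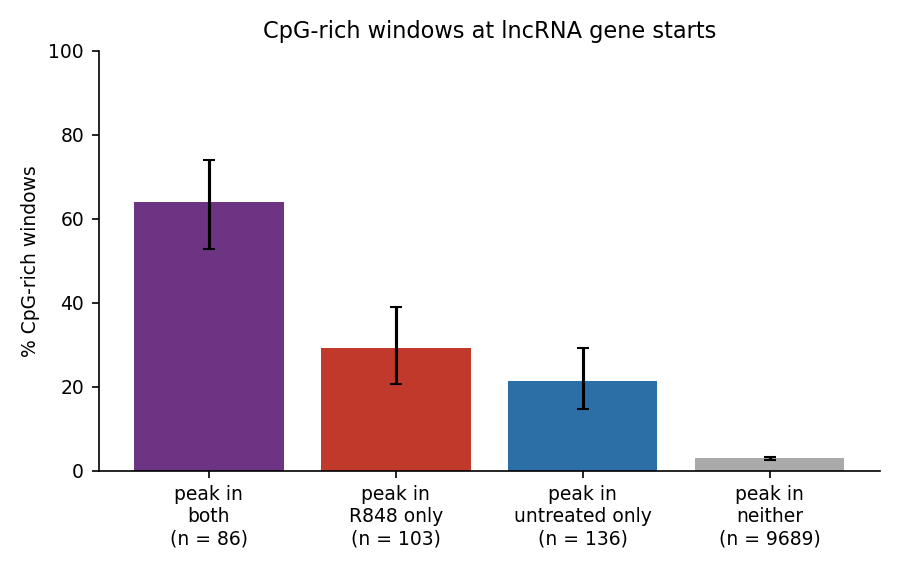
Share (%) of 300 bp windows at lncRNA gene starts that were CpG-rich, by whether the window met a lncRNA-end peak in both lists, in the R848 list only, in the untreated list only or in neither; bars are shares, lines their 95% exact binomial intervals (counting error only). The share was 64.0% with peaks in both lists and 2.97% with none.

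Short motifs in the same windows, searched on both strands, followed this composition in part. The GC box GGGCGG, which itself holds a CpG, was present in 68.6% of windows with a peak in both lists, 28.2% with one in R848 alone, 29.4% with one in untreated alone, and in 10.7% of all 10014 windows. The CCAAT box CCAAT stood in 34.9% (24.9 to 45.9) of windows with a peak in both lists, 45.6% (35.8 to 55.7) with one in R848 alone, 36.0% (28.0 to 44.7) with one in untreated alone and 36.4% of all windows. A loose form of the NF-kB motif, GGGA and CC with 4 bases of any kind between them, stood in 33.7% (23.9 to 44.7) of windows with a peak in both lists, 27.2% (18.9 to 36.8) with one in R848 alone, 28.7% (21.3 to 37.1) with one in untreated alone and 15.0% of all windows. Other motifs were searched too, with shares given here for windows with a peak in both lists and for all windows. The ETS core CCGGAAG gave 11.6% and 2.88%, the E-box CACGTG 12.8% and 5.50%, and the NRF1 motif 3.49% and 0.14%. The AP-1 motif gave 4.65% (1.28 to 11.5) and 10.1%, and the TATA box 11.6% (5.72 to 20.3) and 16.9%. The CRE motif gave 0% (0 to 4.20) and 0.749%. The intervals of the AP-1, TATA and CRE motifs thus include the share of all windows. In R848-only and untreated-only windows AP-1 gave 8.74% and 11.8%, TATA 8.74% and 5.88%, and CRE 2.91% and 2.21%. A match is a run of letters and not a bound site. In the windows printed above a GC box and a CCAAT box were found at Mir22hg, Chaserr and Snhg5, and a TATA box at Snhg5. The loose NF-kB letters and the AP-1 motif were found at Dnmt3aos, and none of the motifs at Malat1 or Gm51639.

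Known lncRNAs of immune or broad expression were looked up by name. Of 38 found in the annotation, 8 had a lncRNA-end peak in the R848 list and 10 in the untreated list, where 6.79% and 7.58% of all lncRNA genes had one. At 7 of them it was in both lists, at 1 in the R848 list only and at 3 in the untreated list only. These 7 (Malat1, Neat1, Mir22hg, Snhg5, Dancr, Lockd and Chaserr) are counted again among the snoRNA hosts, microRNA hosts or imprinted and architectural lncRNAs below. The gene lists thus overlap and are not separate sets. A further 6 of the 38 had a peak that also lay at a coding end: Gas5, Snhg1, Tug1 and Zfas1 in both lists, and Bc1 and Gm16685 in the untreated list. The other 21 had no peak at either end. Among these, lincRNA-Cox2 (Ptgs2os2), its neighbour Ptgs2os, Mir155hg, the host of miR-155, Mirt1, Mirt2, Carlr, AW112010 and Mir17hg had none over the gene body either in either list. Morrbid, which controls the lifespan of myeloid cells through the death gene Bcl2l11, had no peak at its ends but 4 R848 and 2 untreated peaks inside its body. Ttc39aos1, or lincRNA-EPS, a repressor of immune genes in macrophages, had 1 R848 peak and 0 untreated peaks inside its body. Pvt1 went the other way, with 0 R848 and 4 untreated peaks inside its body. Ifngas1 and Lncpint had 1 and 1 each, and Lncbate1 had 1 and 0. These body counts were not set against gene length or against the bodies of all lncRNA genes. Absence from a list means that no peak passed the calling threshold at this depth.

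Mir22hg and Chaserr had the highest folds among lncRNA-end peaks of the listed lncRNAs. The Mir22hg peak lay over the start of the gene on chromosome 11 (gene 75461539 to 75466690), from 75460918 to 75461858 in the R848 list, where its fold was 6.03 and its −log10 q 13.6. In the untreated list it ran from 75461116 to 75461810, and the fold was 7.90 and the −log10 q 24.1. The summits lay 157 and 107 bp upstream of the start, inside the window printed above, and the nearest coding gene, Wdr81, was 6110 bp away. The pileup at the summit was 33 fragments (Poisson 95% interval 22.7 to 46.3) in the R848 library and 45 (32.8 to 60.2) in the untreated library. Scaled by the backgrounds, the R848 over untreated ratio was 0.94 with a counting interval of 0.58 to 1.51, which includes 1.

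Chaserr, whose RNA is known in mouse to hold down its neighbour Chd2, a chromatin remodeller gene, had a peak of fold 7.46 in the R848 list and 7.55 in the untreated list. The peak lay on chromosome 7 from 73558172 to 73558956 and from 73558187 to 73559035, with summits 232 and 202 bp upstream of the start and 26 and 32 fragments. The ratio was 1.05 (0.60 to 1.81). Both peaks covered the start of the gene in the most GC-rich of the windows printed above.

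Neat1 and Malat1 are neighbours on chromosome 19 and make abundant nuclear RNAs, Neat1 as the scaffold of paraspeckles and Malat1 in nuclear speckles. At Neat1 (5824708 to 5845480) the peak at the end of higher coordinate had a fold of 2.97 and 19 fragments in the R848 list, against 3.76 and 40 in the untreated list. The scaled ratio, 0.61 (0.33 to 1.08), is among the 5 lowest of the shared lncRNA genes and its interval includes 1. Malat1 (5795690 to 5802672, minus strand) had peaks at both ends. Upstream, the summits lay 815 and 780 bp before the start, with folds of 3.59 in the R848 list and 2.90 in the untreated list. At the start itself an untreated peak of fold 3.07 (5802195 to 5802685) had no R848 counterpart. Beyond the 3′ end the R848 peak of fold 2.67 overlapped an untreated peak of fold 3.42 that was 2115 bp wide, on 9 fragments in the R848 library and 27 in the untreated library. The scaled ratio was 0.43 for this pair, for which no interval was computed, and 0.96 (0.42 to 2.17) for the upstream pair. The summits of the 3′ pair lay at different positions, 5794989 in the R848 list and 5794464 in the untreated list.

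Host genes of small nucleolar RNAs, which are transcribed for the RNAs in their introns, had peaks at 5 of 21 genes in the R848 list and 6 in the untreated list, where 6.79% and 7.58% of all lncRNA genes had one. Snhg5 had a fold of 3.87 in the R848 list and 5.04 in the untreated list, with summits 344 and 199 bp upstream of its start. Snhg8 had 3.87 and 4.58, Snhg9 2.76 and 4.35, and Dancr 3.59 and 3.20. At these 4 genes the R848 peak held 13, 13, 9 and 12 fragments and the untreated peak 21, 19, 18 and 13, and the scaled ratios of 0.80, 0.88, 0.64 and 1.19 all had counting intervals that included 1. Snhg17 had a peak of fold 3.32 in R848 alone, and Snhg15 and Snhg16 had one in untreated alone (2.29 each, −log10 q 0.163). Another 5 hosts had a peak that also lay at a coding end. Of these, Zfas1 had folds of 7.57 in the R848 list and 5.04 in the untreated list, and Gas5, known as a decoy for the glucocorticoid receptor, 3.32 and 5.95.

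Imprinted and architectural lncRNAs had a lncRNA-end peak at 9 of 25 genes in the R848 list and 6 in the untreated list, beside 6.79% and 7.58% of all lncRNA genes. Dleu2, the host of miR-15a and miR-16-1, and Lockd, which lies downstream of the cell cycle inhibitor gene Cdkn1b, had peaks in both lists. Each had a fold of 2.76 in the R848 list and 2.98 in the untreated list. The −log10 q at both genes was 0.581 in the R848 list and 1.26 in the untreated list. None of these peaks thus reached a q-value of 0.05. Kcnq1ot1, the silencing RNA of its imprinted domain (2.76), Mirg (2.46), Peg13 (3.32) and Trp53cor1, or lincRNA-p21, a p53 target (2.76), had one in R848 alone. Meg3, of the imprinted Dlk1 domain, had 2 in untreated alone (2.75 and 3.20), both near its 3′ end. None of the peaks of 1 list had a −log10 q above 1.75, and those at Kcnq1ot1, Mirg and Trp53cor1 had 0.581 or less. Xist, Jpx, Ftx and Firre, all on the X chromosome, had no peak at an end or over the body in either list.

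MicroRNA hosts and developmental lncRNAs were counted in the same way, against the 6.79% and 7.58% of all lncRNA genes. Of 10 microRNA hosts, 1 had a peak in the R848 list (Mir22hg) and 2 in the untreated list (Mir22hg and also Mir124a-1hg, with a fold of 2.75). Of 25 developmental lncRNAs, 2 had one in the R848 list and 4 in the untreated list, with none in both. The R848 peaks were at Paupar, beside the eye gene Pax6 (3.32), and Hotairm1, a myeloid lncRNA of the HOXA cluster (2.76, −log10 q 0.581). That peak, on chromosome 6 from 52158474 to 52158754, also lay at the end of Hotairm2. The untreated peaks were at Pantr1 (3.43), Otx2os1 (2.98), Evx1os (2.52) and Six3os1 (2.49), all beside genes of developmental transcription factors. Dnmt3aos, antisense to the DNA methyltransferase gene Dnmt3a and known from macrophage polarization, had an untreated peak of fold 2.98 and −log10 q 1.26, with its summit 34 bp upstream of the start and no R848 peak.

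**Figure D4:**
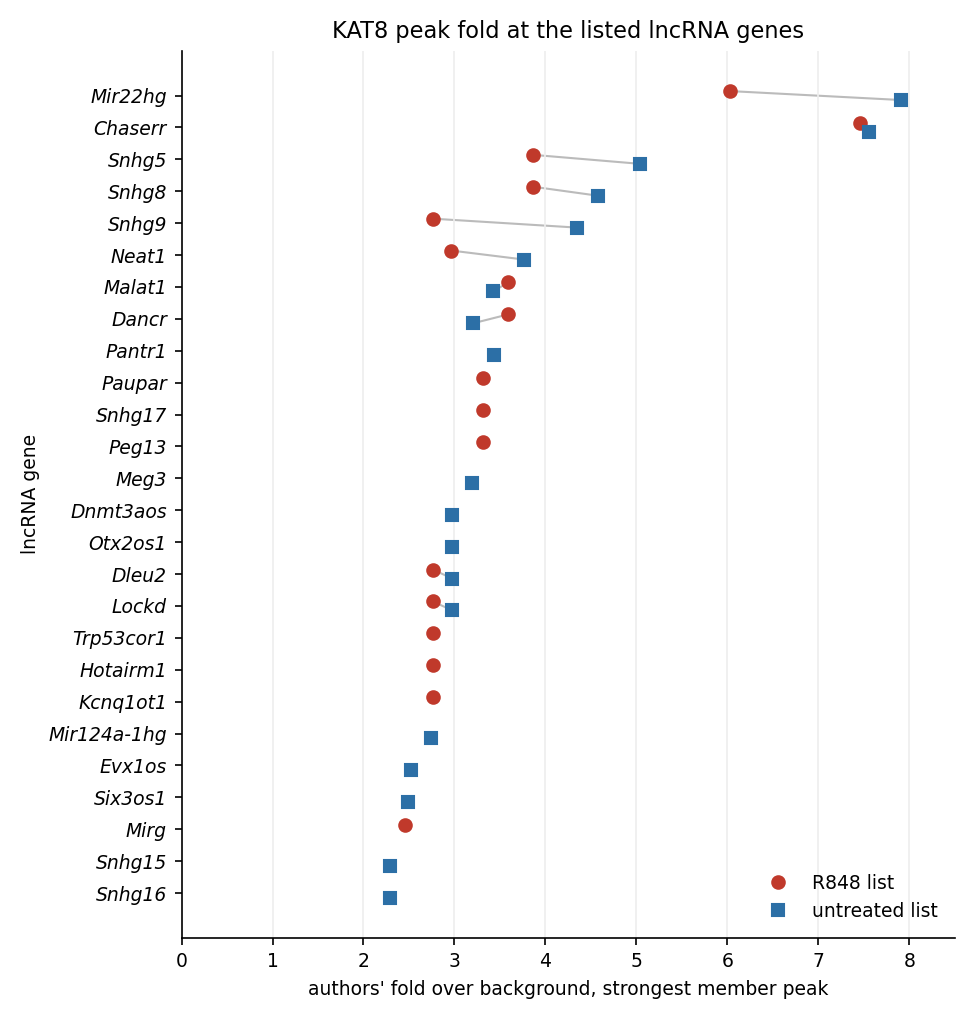
Authors' fold over background (x axis) of the strongest lncRNA-end peak at each listed lncRNA gene with a peak (y axis), in the R848 list (red circles) and the untreated list (blue squares); a missing symbol means no such peak in that list and grey lines join genes with both. Mir22hg (6.03 and 7.90) and Chaserr (7.46 and 7.55) stand above the others, and folds of the 2 lists do not measure a change.

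Among lncRNA genes whose peaks overlapped nothing in the untreated list, the highest folds in the R848 list were at 1700049J03Rik on chromosome 17 (26565680 to 26565942) and Gm51639 on chromosome 1 (88331364 to 88331707), each with a fold of 5.53 on 19 fragments and with 7.18 as −log10 q. The Gm51639 summit was 213 bp inside the gene, downstream of its start and within the coding gene Trpm8, a cold-sensing channel. 4930578M01Rik followed with 2 peaks, of 5.25 and 3.32, and then Gm13383 with 4.70. Gm16174 (chromosome 7, 19816585 to 19818618) had 2 R848 peaks of fold 4.50 and 2.94 within 1000 bp of its ends, inside Bcl3, which encodes a nuclear IκB protein. No untreated peak overlapped either of them. 4930448E22Rik, Gm35148, Gm40211, Gm42139 and Gm46264 tied at 4.42. These 10 genes had 15 to 19 fragments at the strongest summit, against a background of 2.62.

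In the untreated list the highest fold of this kind was at Gm30364, which overlaps Nup210, a nuclear pore gene, with 5.04 on 21 fragments. An R848 peak of fold 3.04 lay beside it at the same gene without overlapping it. Gm40356, inside Cttnbp2, and Gm46218, inside Echdc1, had 4.81 on 20 fragments each. A single peak of fold 4.35 on chromosome 5 (23850360 to 23850880) lay at 2700038G22Rik and Gm42228, which overlap and run in opposite directions. Gm35676 followed with 4.24, and Gm11205, Gm30271 and Gm46360 had 4.12 each. These peaks held 17 to 21 fragments, against a background of 3.37. Of the 565 R848-only genes 161 had a q-value of 0.05 or less, and of the 666 untreated-only genes 139 did.

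Genes with peaks in both lists allow the summit pileups to be set side by side. Each peak has its own summit, so the summits of a pair can lie at different positions. A peak that overlaps several peaks of the other list enters several pairs. Over 236 shared pairs with a q-value of 0.05 or less in at least 1 list, the R848 over untreated ratio, scaled by the backgrounds, had a median of 1.03 with quartiles at 0.88 and 1.29. Over the 13655 shared pairs of the whole series under the same q limit, called all pairs here, the median was 1.10. The ratio was above 1.5 for 38 of the 236 pairs (16.1%), where 14.1% of all pairs were, and below 1 over 1.5 for 12 (5.08%), where 3.65% of all pairs were. Both shares were near those of all pairs. Most of these ratios rest on few fragments. Over all lncRNA-end peaks, including weak ones and those of 1 list, the median summit held 10 fragments in the R848 library and 12 in the untreated library. The median over the 236 pairs was not computed.

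Per gene, the ratio was taken from its strongest overlapping pair. The highest was at Gm11613 on chromosome 11, 2593 bp from Mllt6, with 31 fragments in the R848 library and 15 in the untreated library (ratio 2.66, 1.39 to 5.30). A second pair of peaks at the same gene had 19 and 13. Gm38560 (2.29, 0.95 to 5.87) lies inside Txnrd1, a thioredoxin reductase gene, Gm38632 (2.22, 1.00 to 5.17) inside Hivep3, Gm41218 (2.04, 1.07 to 4.00) near Cnmd and Gm46898 (1.96, 1.12 to 3.47) in a region of zinc finger genes. A second pair of peaks at Gm46898 had 28 fragments in the R848 library and 27 in the untreated library (ratio 1.33). The lowest ratios were at Gm35248, which overlaps Klf10, an early response transcription factor gene, with 14 and 39 fragments (0.46, 0.23 to 0.87), and at Gm35417 inside Edem1, with 18 and 45 (0.51, 0.28 to 0.91). LOC102643083 (0.57, 0.25 to 1.19) and Gm13483 (0.57, 0.22 to 1.38) had intervals that included 1. These genes are the extremes of the ratio, so their intervals describe counting error and are no test. Pairs other than the strongest of a gene reached lower ratios, with 0.43 at Malat1 and a lowest value of 0.34. That lowest pair had 10 R848 and 38 untreated fragments. Its untreated peak was also paired with an R848 peak of 29 fragments, at a ratio of 0.98.

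**Figure D5:**
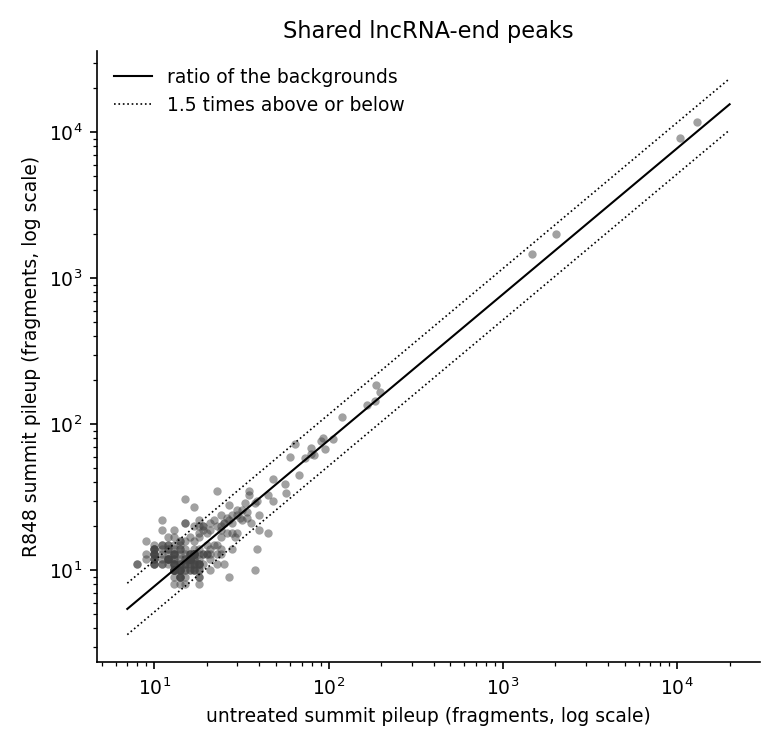
Summit pileup (overlapping fragments, both axes on a log scale) of shared lncRNA-end peaks in the R848 library (y) against the untreated library (x), 236 pairs with a q-value of 0.05 or less in at least 1 list; the solid line is the ratio of the 2 backgrounds and dotted lines lie 1.5 times above and below it. The median scaled ratio was 1.03, and 38 pairs lay above and 12 below the dotted lines.

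The 5 lncRNA genes with the highest folds were the same in both lists. Gm41530 on chromosome 17 had a fold of 22.2 in the R848 list and 19.2 in the untreated list, with 186 and 187 fragments. Gm46178 on chromosome 1, 11859 bp from Batf3, had 18.5 and 17.4, and Gm46796 on chromosome 3, 499106 bp from any coding gene, had 16.6 and 16.9. Gm40237 on chromosome 4 had 16.3 and 15.6 on 1458 and 1467 fragments, and Gm8273 15.5 and 15.5. The deepest peak was at AY036118 on chromosome 17, chosen after its values were seen, which was 4190 bp wide in the R848 list and 4175 bp in the untreated list. It held 11790 and 13081 fragments at the summit but a fold of only 2.39 and 2.37. No filter for repeats or high-signal regions was applied, and such values give no ranking of KAT8 targets.

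By chromosome the X stood apart. Of 289 lncRNA genes on the X chromosome, 2 (0.692%, 0.0839 to 2.48) had a peak in the R848 list and 5 (1.73%, 0.564 to 3.99) in the untreated list, against 6.94% of autosomal lncRNA genes in the R848 list. The autosomal count in the untreated list was 957 of 12408 (7.71%). The low level was not particular to lncRNAs: protein-coding genes on the X had a peak at 4.14% and 4.66% of 966 genes, against 25.6% and 30.2% of autosomal ones. Gm5636 (5.53 in the R848 list and 4.12 in the untreated list) and Gm31556 (2.49 and 2.98, at different positions) were the X-linked lncRNA genes with peaks in both lists.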

How the data were processed

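KAT8 CUT&Tag peak lists of R848-stimulated and untreated macrophages were used, 1 library per group, grouped by the treatment label. The mm10 build and the tools MACS2 2.2.7.1, Bowtie 0.12.8 and DiffBind are given by the submitters' processing notes; tool roles, settings and any control library are unknown here. The authors' deposited values of each peak are −log10 p, −log10 q, a fold (a linear ratio to background) and a score. Depth is not stated; summit fragment counts and backgrounds were solved from fold and p, and came out whole within 0.001 in 100% of peaks.

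Gene ends were those of RefSeq on GRCm38.p6 (mm10), with 12727 lncRNA and 21887 protein-coding genes; 4 lncRNA genes off the standard chromosomes were left out. Annotated starts and 300 bp windows came from a RefSeq promoter table. Overlap meant at least 1 bp. Shares have 95% Clopper-Pearson intervals, and pileup ratios an exact conditional interval. No test between groups was possible. Python 3.11.15, numpy 2.4.6, pandas 2.3.3, scipy 1.17.1 and matplotlib 3.10.9 were used, and the code was tested on simulated data.

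The members, gene lists and rules were chosen with earlier results of these data known. Named were the immune lncRNAs, the 5 highest folds per list, the 8 highest among genes whose peaks overlap none of the other list (ties kept), the 5 highest and 5 lowest pileup ratios, and up to 4 genes of each other list; further genes named from those lists, from the X chromosome or in the closing section were chosen after their values were seen. Alternatives were stricter q thresholds, equal list lengths, other overlaps and windows, coding ends kept, and lncRNA genes outside coding bodies.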

Additional observations from a re-analysis of the deposited data

How the results depend on the processing

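With windows of 3000 bp there were 1830 R848 and 2176 untreated peaks, 697 genes with a peak in both lists, 957 in R848 alone and 1248 in untreated alone, and 22.8% of untreated peaks were shared. With 500 bp there were 603 and 682 peaks, of which 34.7% and 31.1% were shared, and 436 untreated-only genes. At −log10 q of at least 1.3 in both lists there were 369 and 347 peaks, 39.0% and 41.8% shared, with 139 genes in both, 212 in R848 alone and 187 in untreated alone. At 5 or more there were 63 and 73 peaks, 74.6% and 64.4% shared, with 43, 15 and 21 genes. Set against any peak of the other list, the 369 and 347 peaks at 1.3 or more were shared in 50.4% and 55.04%. Single-list genes numbered 161 and 139 in this alternative, which was added after seeing the data. Lists of equal length gave 915 R848 and 869 untreated peaks, with 582 genes in R848 alone and 535 in untreated alone. The R848 counts were then the larger, the reverse of the order in the main setting. Of these peaks 27.7% and 29.7% were shared. Overlap of 50% of each peak gave 20.0% and 17.9%, with 174 genes in both, and summits within 250 bp gave 24.9% and 22.3%. With peaks at coding ends kept there were 1479 and 1712 peaks, 46.0% and 40.0% shared, and 723 genes in both. For lncRNA genes outside coding bodies there were 552 and 609 peaks, 25.4% of R848 peaks shared, with 168, 362 and 420 genes. In all, 48 values moved and 18 did not; the cause was not tested, apart from the smaller or larger number of peaks that each threshold or window leaves. Counts of single-list genes thus depend on the threshold and on how the other list is read: of 58 R848 and 64 untreated genes at −log10 q of at least 5, 55 and 61 had a peak of any strength in the other list, and at 10 or more 29 of 29 and 38 of 38 did. No paired analysis was possible because each group has 1 library.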

Other observations

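A few further lncRNA genes were picked out after their values were seen. Mexis, a macrophage lncRNA near the cholesterol transporter gene Abca1 that is known to amplify its induction by LXR, had an R848 peak of fold 3.59 and −log10 q 2.07 on chromosome 4 (53269509 to 53269763, 12 fragments), 596 bp downstream of its start, and no untreated peak. Crnde, beside Irx5, had an R848 peak of fold 3.04 on 10 fragments and no untreated peak.

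Lying opposite coding genes, Hk1os had folds of 4.97 in the R848 list and 4.08 in the untreated list, Zbtb11os1 3.32 and 4.35, and Unc45bos 3.82 and 3.34. Junos, opposite the AP-1 gene Jun, had a lncRNA-end peak of fold 2.62 in the untreated list alone, while its peaks at the coding end were in both lists with folds of 4.64 and 4.77.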
